A study of Mus musculus with 9 samples.

Results

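Enteroendocrine transcription factors are the 9 nuclear regulators Neurog3, Neurod1, Pax4, Pax6, Isl1, Insm1, Nkx2-2, Fev and Rfx6, which act in the hormone-producing cells of the gut epithelium. They were found on the array by the gene name of each probe, with Rfx6 carried under its older name Rfxdc1, and 12 of 41174 probes and 9 of 28478 genes belonged to them. Epithelial cells of C57BL/6 mice were sorted into 3 groups of 3 samples, with 1 single-colour array for the RNA of a sample. MHCIIhi cells came from small intestine and were gated as Epcamhi and MHChi, MHCIIlo cells came from small intestine and were gated as Epcamint and MHCint, and kidney cells were gated as Epcam+. All gates also required cells to be CD45- and Fluorogold-, that is, without the common leukocyte surface protein and without the dye used to exclude dead cells. Each intestinal sample pooled cells of 3 mice and each kidney sample cells of 4 mice, so a value is the mean over animals and over all cell types within the gate. The age and sex of the mice are not given in the sources used here.

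Enteroendocrine cells are rare hormone-secreting cells scattered along the crypts and villi. Notch signalling through Hes1 holds back the basic helix-loop-helix factor Neurog3 in most progenitors, and a short pulse of Neurog3 in the remaining few starts the endocrine programme. Neurog3 switches on Neurod1, Insm1, Pax4, Nkx2-2 and Rfx6, and Isl1, Pax6 and Fev act in later or more specialised cells, where they help set which hormone a cell makes. All 9 factors also act in the endocrine pancreas, and Fev is known from serotonin-producing cells.

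The value of Neurog3, the factor at the head of this order, rested on 1 probe that lies in its coding sequence, at chr10:61529179-61529238 of mm8, the build of the array's annotation. Pax6 had 3 probes, and the results below depend on which one is read. The sequences of its brightest probe and of a probe that was above background on no array are therefore given with that of Neurog3. On the array's annotation the first Pax6 probe spans chr2:105496273-105497145 and the second chr2:105484780-105485631. These spans are 873 and 852 bases for probes of 60 bases, so each probe covers parts of different exons.
Neurog3 A_51_P175784: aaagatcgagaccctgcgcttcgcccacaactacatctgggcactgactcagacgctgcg
Pax6 A_52_P565559: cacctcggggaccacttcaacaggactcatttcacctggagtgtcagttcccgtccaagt
Pax6 A_52_P469306: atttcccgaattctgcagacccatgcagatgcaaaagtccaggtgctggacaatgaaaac
The GC content of these probes was 58.3%, 55.0% and 46.7%. Over all 12 probes it ranged from 23.3% for Neurod1 to 58.3% for Neurog3. Neurog3, Fev and the brightest Pax6 probe, the 3 probes that were above background on all 9 arrays, had GC contents of 58.3%, 46.7% and 55.0%.

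Neurog3 and Neurod1 bind short DNA words named E-boxes, written CANNTG, in the control regions of their targets. Promoters, here the 250 bases before a gene's start, were listed for 7 of the 9 genes in RefSeq's GRCm38.p6 annotation, with 8 promoters in all since Pax6 had a pair of starts. The promoters of Neurog3 and of its targets Neurod1 and Nkx2-2 are shown 5′ to 3′ on the gene's strand, with each CANNTG in capitals. They lie at chr10:62132840-62133089 on the plus strand and at chr2:79456637-79456886 and chr2:147186403-147186652 on the minus strand.
Neurog3 promoter: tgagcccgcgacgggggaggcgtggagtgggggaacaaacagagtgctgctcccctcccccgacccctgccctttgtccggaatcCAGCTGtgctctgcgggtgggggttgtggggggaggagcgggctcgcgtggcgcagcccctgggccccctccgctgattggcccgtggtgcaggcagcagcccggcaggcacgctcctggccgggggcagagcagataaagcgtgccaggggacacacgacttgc
Neurod1 promoter: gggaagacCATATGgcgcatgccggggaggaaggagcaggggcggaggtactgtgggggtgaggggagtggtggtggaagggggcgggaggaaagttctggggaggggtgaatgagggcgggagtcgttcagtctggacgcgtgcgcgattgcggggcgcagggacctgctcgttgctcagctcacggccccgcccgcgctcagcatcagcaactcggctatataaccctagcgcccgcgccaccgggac
Nkx2-2 promoter: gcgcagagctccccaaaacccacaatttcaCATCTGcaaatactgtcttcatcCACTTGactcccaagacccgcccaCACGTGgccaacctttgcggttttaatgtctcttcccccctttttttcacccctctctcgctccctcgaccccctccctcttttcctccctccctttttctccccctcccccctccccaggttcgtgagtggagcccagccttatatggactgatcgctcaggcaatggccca
CANNTG reads the same on both strands as a pattern. It occurred 1 time in the promoters of Neurog3 and Neurod1 and 3 times in that of Nkx2-2, while the promoters of Rfx6, Fev and 1 of the 2 Pax6 starts held none. In all 5 of 8 member promoters held it (62.5%), against 66.2% of 32851 promoters of the same length. The form CAGATG or its complement CATCTG was found in the Nkx2-2 promoter and in 14.4% of all promoters. The form CAGCTG was found in the promoters of Neurog3 and Isl1 and in 13.0% of all. These matches describe letters only.

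The members gave dim signals, so the scale and the detection limit of each array come first. Levels are log2 of the scanner's background-corrected signal minus the array's 75th percentile, so a gene at 0 is at the signal that 75% of the probes do not exceed. That percentile ranged from 213.3 to 371.3 over the MHCIIhi arrays, from 100.6 to 184.9 over MHCIIlo and from 599 to 769 over kidney. The lowest level that the scanner software called well above background was accordingly -5.37 to -4.45 in MHCIIhi, -4.35 to -3.43 in MHCIIlo and -6.11 to -5.80 in kidney. The slides held unequal sets of arrays: MHCIIhi 1 and 2 were on the first, MHCIIhi 3 with all MHCIIlo arrays on the next, and kidney on the last. The tissue labels held against markers: the intestinal genes Cdx1, Cdx2 and Cdh17 were above background on 3 of 3 arrays of both intestinal groups and on 0 of 3 kidney arrays. The transcripts of the proteins used to gate the intestinal groups did not follow the group names. Cd74, the invariant chain of MHC class II, was lower in MHCIIhi by -1.10 (limma adjusted p = 0.00627), and the class II genes H2-Ab1, H2-Aa and H2-Eb1 differed by -0.55, -0.55 and -0.47, with Epcam at -0.26 (adjusted p = 0.0634, 0.141, 0.0810 and 0.480). The gates were set on surface protein, which the arrays do not measure, and directions below are those of the groups as labelled.

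All 9 factors were above background on at least 2 of 3 MHCIIhi arrays, whereas 3 of 9 reached this in MHCIIlo and 3 of 9 in kidney. Over all 28478 genes the shares were 61.1% in MHCIIhi, 54.8% in MHCIIlo and 70.7% in kidney. The 3 factors detected in MHCIIlo and kidney were the same: Neurog3, Fev and Pax6. Detection limits differed, and the lowest level above background was -4.35 to -3.43 over the MHCIIlo arrays. The MHCIIhi means of Neurod1, Insm1, Nkx2-2 and Rfx6 were -4.39, -4.71, -4.49 and -4.48, below that limit on every MHCIIlo array. For these factors the counts cannot show a lower level in MHCIIlo. In these bulk samples, fewer cells of a type and less RNA per cell cannot be told apart.

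**Figure D1:**
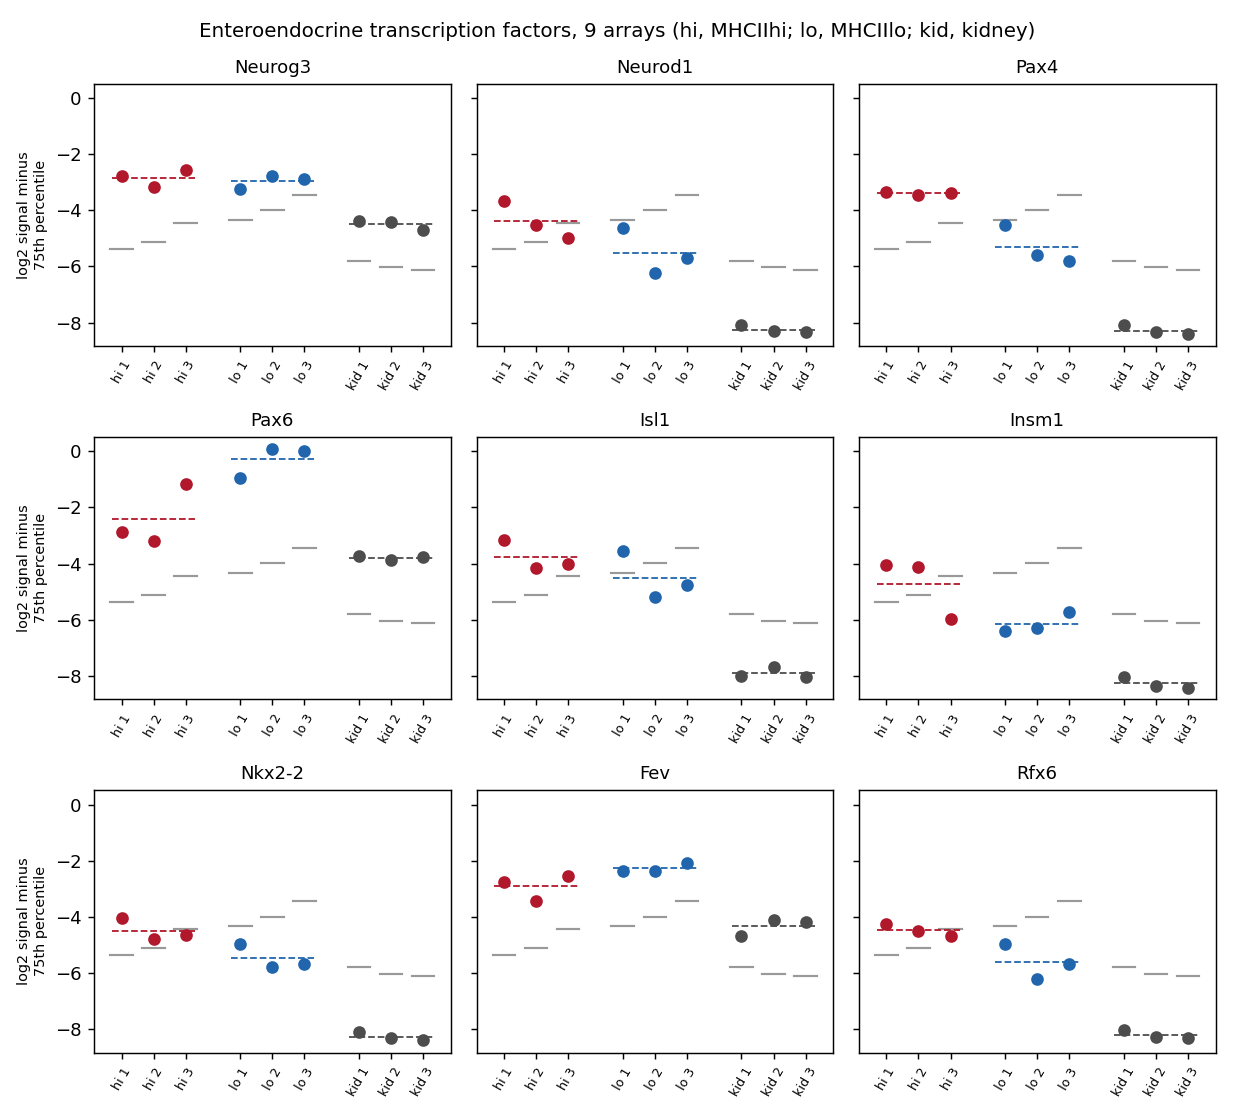
Level of each of the 9 factors on every array, in log2 units relative to the 75th percentile of the array, with 1 panel per gene and 1 point per array. Dashed lines are group means over 3 arrays and grey ticks are the lowest level well above background on each array. Neurog3, Fev and Pax6 lie above the ticks on all 9 arrays, and the other 6 factors lie below them on all kidney arrays.

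A gene entered the test if some group measured its probe well above background on each of its 3 arrays. Of the 9 factors 5 did: Neurog3, Pax4, Pax6, Isl1 and Fev. Between MHCIIhi and MHCIIlo, 2 of these 5 were called at a limma adjusted p below 0.05 and a log2 difference of at least 1, Pax4 as higher and Pax6 as lower in MHCIIhi. Pax4 and Isl1 passed the filter through MHCIIhi alone. Of all 19993 genes tested, 31% were called in this comparison, 14.9% as higher and 16.1% as lower. The median difference of all genes was -0.24, and relative to it Pax4 differed by 2.14 and Pax6 by -1.91. The count of called factors moved with single arrays: without MHCIIhi 3 it was 6 of 9 tested, 5 higher and 1 lower, where 41.5% of all genes were called. Neurod1, Insm1, Nkx2-2 and Rfx6 entered there because both remaining MHCIIhi arrays, and no others, measured them above background, so the filter itself favoured higher calls. Without MHCIIhi 3 and MHCIIlo 1 it was 7 of 9, 6 higher and 1 lower, where 46.5% of all genes were called.

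Neurog3 starts the endocrine programme and is known from short-lived precursors. Its level was -2.79, -3.15 and -2.56 in MHCIIhi, against -3.22, -2.79 and -2.86 in MHCIIlo, with kidney at -4.39, -4.40 and -4.69. The intestinal groups overlapped and the kidney group lay below both. The difference between MHCIIhi and MHCIIlo was 0.13 ± 0.21 (SE), with a 95% interval of -0.36 to 0.61 (limma adjusted p = 0.638), so an effect of over 1 log2 unit in either direction lies outside the interval. Its sign was not stable: it was -0.013 without MHCIIhi 3, -0.0075 without MHCIIlo 1 and -0.46 after normexp background correction, where the median of all genes was -0.50. Before scaling, the Neurog3 signal was 46.2, 41.8 and 36.3 in MHCIIhi and 19.8, 17.5 and 13.8 in MHCIIlo, with no overlap. The array scale, with its higher 75th percentile in MHCIIhi, thus moved with this signal, and the part it plays in the overlap of the scaled levels was not tested.

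Pax4 is a paired-homeodomain repressor that follows Neurog3 and favours serotonin- and somatostatin-producing fates. Its level was -3.33, -3.47 and -3.36 in MHCIIhi, with a mean of -3.39 ± 0.07 (SD, n = 3), the narrowest spread of the 9 factors there. In MHCIIlo it was -4.51, -5.57 and -5.79 and in kidney -8.10, -8.33 and -8.42. All 3 MHCIIhi arrays were above background and no array of the other groups was, and the groups did not overlap. The fitted difference was 1.90 ± 0.31 (SE; limma adjusted p = 0.00222). It is no estimate of a fold, since Pax4 was tested through MHCIIhi alone, the MHCIIlo values were not above background, and the probe held surrogate values on 4 of the 9 arrays. Set against the detection limit of the MHCIIlo arrays, the level in MHCIIhi was at least 1.45-fold higher, where the limit is the higher of an array's lowest signal above background and the probe's own signal. Within the slide that held both groups, MHCIIhi 3 lay 1.92 above the mean of MHCIIlo, a value of 1 array against 3 below background. The direction turned under normexp correction with offset 50, where the difference was -0.39 (adjusted p = 0.0647) and the median of all genes was -0.50, so that Pax4 lay 0.10 above that median.

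Neurod1, Insm1, Nkx2-2 and Rfx6 are the other early targets of Neurog3, and none was above background on all 3 arrays of a group, so none entered the test. Each was above background on 2 of 3 MHCIIhi arrays, namely MHCIIhi 1 and 2, and on no MHCIIlo or kidney array. Where the signal was not significant the scanner software writes a surrogate value, and these 4 probes held one on 4 or 5 of the 9 arrays each.

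Neurod1 is a basic helix-loop-helix factor that pushes endocrine precursors out of the cell cycle and into hormone expression. Its level was -3.65, -4.52 and -5.00 in MHCIIhi, against -4.63, -6.24 and -5.69 in MHCIIlo, with kidney at -8.10, -8.31 and -8.34. MHCIIlo 1 was higher than MHCIIhi 3, so the intestinal groups overlapped. Insm1, a zinc-finger repressor that is widely used as an endocrine marker, stood at -4.04, -4.12 and -5.97 in MHCIIhi and at -6.41, -6.30 and -5.71 in MHCIIlo. MHCIIhi 3 lay within the MHCIIlo range, and its distance to the MHCIIlo mean was 0.17 against 1.43 for the whole groups.

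Nkx2-2, a homeodomain factor that keeps ghrelin in check in other endocrine lineages, stood at -4.05, -4.79 and -4.64 in MHCIIhi and at -4.98, -5.80 and -5.68 in MHCIIlo. The intestinal groups did not overlap, though MHCIIhi 2 and MHCIIlo 1 were close together. Rfx6, a winged-helix factor that maintains hormone-producing cells, had levels of -4.24, -4.52 and -4.67 in MHCIIhi and -4.99, -6.23 and -5.68 in MHCIIlo, again with no overlap. These levels came from the brighter of 2 Rfx6 probes. The other, at chr10:51418079-51418138, was above background on 0 of 9 arrays, so it could hardly show a difference. With every probe fitted and no filter, it differed by -0.16 between MHCIIhi and MHCIIlo (limma adjusted p = 0.734), and its intestinal groups overlapped.

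When the filter on dim probes was dropped, all 9 factors were fitted and 4 were called between MHCIIhi and MHCIIlo, against 30% of all genes. Insm1 was then higher in MHCIIhi by 1.43 (limma adjusted p = 0.0400) and Rfx6, on its brighter probe, by 1.15 (adjusted p = 0.0234), beside Pax4 and Pax6. Nkx2-2 differed by 0.99 (adjusted p = 0.0278), just under the size required, and Neurod1 by 1.13 (adjusted p = 0.0666). As no MHCIIlo array measured these 4 genes above background, these differences rest partly on surrogate values and are no estimate of a fold. With the higher detection limits of MHCIIlo, no lower bound above 1 was obtained for any of the 4.

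Isl1, a LIM-homeodomain factor of differentiated endocrine cells, was read by a probe printed in 10 spots per array. Its level was -3.16, -4.16 and -4.01 in MHCIIhi, against -3.57, -5.20 and -4.75 in MHCIIlo, with kidney at -8.01, -7.69 and -8.06. MHCIIlo 1 lay inside the MHCIIhi range, and the other MHCIIlo arrays lay below it. On MHCIIhi 1, MHCIIhi 2 and MHCIIlo 1 all 10 spots were above background, on MHCIIhi 3 8 of 10 were, and on MHCIIlo 2 and 3 and the kidney arrays 0 were. The difference between MHCIIhi and MHCIIlo was 0.73 ± 0.42 (SE; 2 of the 3 MHCIIlo values were not above background), with a 95% interval of -0.23 to 1.68 (limma adjusted p = 0.174). Without MHCIIlo 1 the difference was 1.19 (limma adjusted p = 0.0169), past the threshold. That array was the only MHCIIlo array with Isl1 above background, so leaving it out set MHCIIhi against values not above background. Under normexp correction the difference had the opposite sign (-0.62, limma adjusted p = 0.0127), where the median of all genes was -0.50.

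Fev, an ETS factor known from serotonin-producing neurons and from endocrine precursors, was above background on all 9 arrays. Its level was -2.78, -3.43 and -2.54 in MHCIIhi, against -2.36, -2.38 and -2.07 in MHCIIlo, with kidney at -4.68, -4.10 and -4.20. Every MHCIIlo array was above every MHCIIhi array. The difference of -0.65 ± 0.26 (SE; limma adjusted p = 0.0684) did not pass, and was under the size required for a call. Within the shared slide it was -0.27. Before scaling the signals were 46.6, 34.5 and 36.6 in MHCIIhi and 36.1, 23.1 and 23.9 in MHCIIlo, so the order of the group means was the opposite one.

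**Figure D2:**
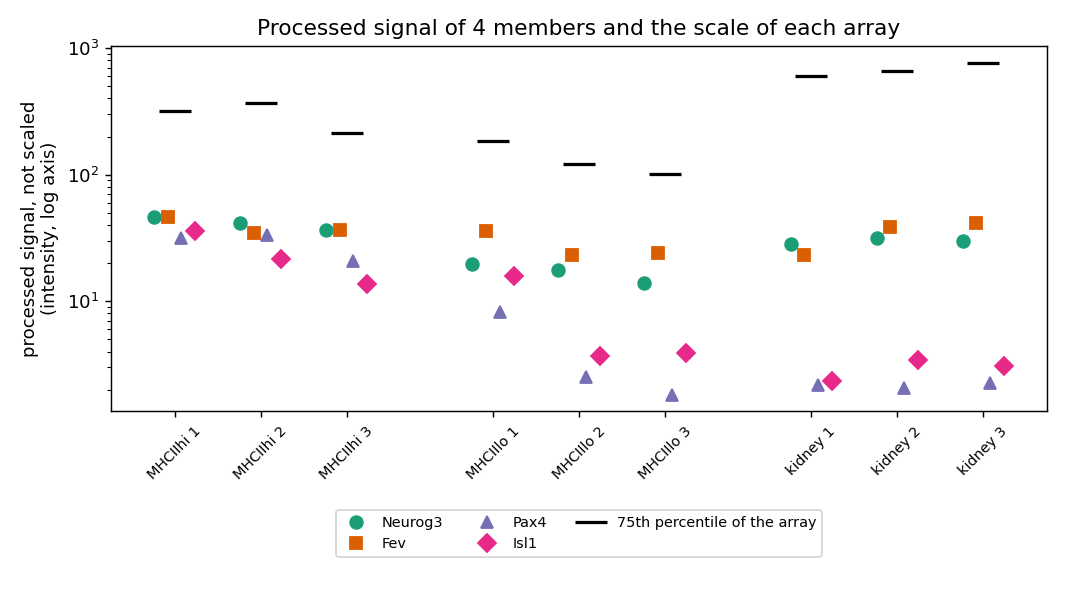
Background-corrected signal of Neurog3, Fev, Pax4 and Isl1 on each array before scaling, on a log axis, with the 75th percentile of the array as a black tick. The ticks range from 100.6 on MHCIIlo 3 to 769 on kidney 3, Neurog3 ranges from 13.8 to 46.2, and Pax4 and Isl1 are lowest where their probes were not above background.

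Pax6, a paired-homeodomain factor that acts on hormone genes such as that of proglucagon, showed the opposite direction to Pax4. On its brightest probe, printed in 10 spots, the level was -2.88, -3.21 and -1.17 in MHCIIhi, against -0.94, 0.09 and 0.01 in MHCIIlo, with kidney at -3.74, -3.86 and -3.76. The groups did not overlap, and MHCIIhi 3 and MHCIIlo 1 lay closest to each other. MHCIIhi was lower than MHCIIlo by -2.14 ± 0.50 (SE; limma adjusted p = 0.00942). The SD among spots of an array was 0.06 to 0.20, while the SD among the 3 MHCIIhi arrays was 1.09.

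That difference was smaller within the slide that held both groups. MHCIIhi 3, on the slide of the MHCIIlo arrays, lay 0.89 below their mean (-0.89, limma adjusted p = 0.188 with slide as a term). That contrast has 1 MHCIIhi array, assumed to vary like the others. MHCIIhi 1 and 2, on the other slide, had a mean of -3.05. That slide held no MHCIIlo array, so slide and group cannot be told apart there. Before scaling, the probe gave 43.5, 40.4 and 95.3 in MHCIIhi and 96.4, 129 and 102 in MHCIIlo.

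The other Pax6 probes were near or below background, so they could hardly show a difference. A_51_P489935 was above background on MHCIIhi 1 and MHCIIlo 1 alone, with levels of -3.62, -5.64 and -6.77 in MHCIIhi and -3.89, -6.30 and -5.74 in MHCIIlo. Its intestinal groups overlapped, and with every probe fitted and no filter the difference was -0.04 (limma adjusted p = 0.974). A_52_P469306, whose sequence is shown above, was above background on 0 of 9 arrays and held surrogate values on 8. Its difference was -0.72 (limma adjusted p = 0.0702). Before scaling, its signals were 3.45, 2.44 and 2.13 in MHCIIhi and 2.03, 1.65 and 2.10 in MHCIIlo, so the order of the group means was the opposite one. With no array above background, the sign of this difference is not read. With the mean of the 3 probes taken as the level of the gene, the Pax6 difference was -0.97 (limma adjusted p = 0.0158), under the size required, and Pax6 was no longer called.

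**Figure D3:**
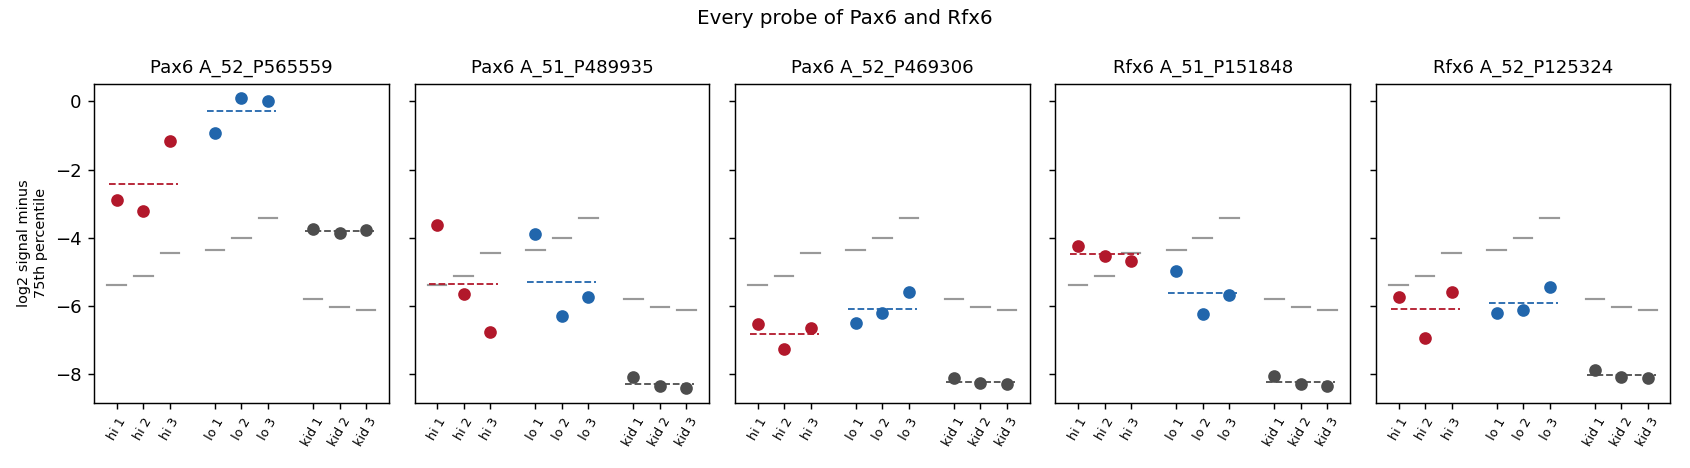
Level of each probe of Pax6 and Rfx6 on every array, in log2 units relative to the 75th percentile of the array, with group means over 3 arrays as dashed lines and the lowest level well above background on each array as grey ticks. Pax6 A_52_P565559 lies above the ticks on all 9 arrays and is highest in MHCIIlo, whereas Pax6 A_52_P469306 and Rfx6 A_52_P125324 lie below them on all 9.

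**Figure D4:**
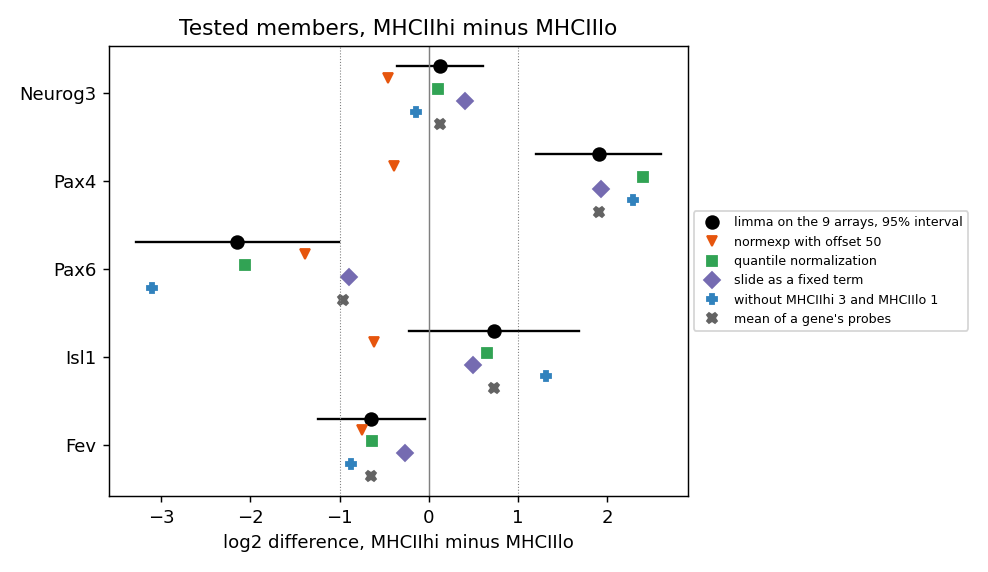
Log2 difference of MHCIIhi minus MHCIIlo for the 5 factors tested, as estimated by limma with its 95% interval in black and under 5 alternative settings in colour, with dotted lines at the size required for a call. Pax4 lies at 1.90 and moves to -0.39 under normexp correction, and Pax6 lies at -2.14 and moves to -0.89 with slide as a term.

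The replicates of a group differed from each other. In scaled levels, MHCIIhi 1 was the highest MHCIIhi array for 6 of 9 factors (Neurod1, Pax4, Isl1, Insm1, Nkx2-2 and Rfx6). MHCIIhi 3 was the highest for the other 3 (Neurog3, Pax6 and Fev). Before scaling, Neurog3 (46.2, 41.8 and 36.3) and Fev (46.6, 34.5 and 36.6) were highest on MHCIIhi 1. Pax4 (31.8, 33.6 and 20.7) and Insm1 (19.4, 21.3 and 3.40) were then highest on MHCIIhi 2, and the other factors kept their highest array. Over all 19993 genes tested, MHCIIhi 1 was the highest array for 20.7% and MHCIIhi 3 for 48.7%. Among 19 hormone and granin genes on the array, MHCIIhi 1 was the highest for 16. Within MHCIIlo, MHCIIlo 1 was the highest for 14 of the 19 hormone and granin genes, against 35.5% of all genes, and was the MHCIIlo array on which Isl1 was above background. Of the other factors, Neurod1, Pax4, Insm1, Nkx2-2 and Rfx6 were not above background on any MHCIIlo array, so their order there is not read. The factors that were highest on MHCIIhi 3 in scaled levels were the same 3 that were above background in kidney, and the part of the scale in this was not tested.

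Kidney epithelium was lower than MHCIIhi and than MHCIIlo for Neurog3, Fev and Pax6, the 3 tested factors above background on all 9 arrays. These were also the 3 tested against MHCIIlo when the filter read the compared groups alone. Pax4 and Isl1 were called lower than in MHCIIhi as well. They passed the filter through MHCIIhi alone, so the filter itself favoured that direction. Of all genes, 24.8% were called lower in kidney than in the mean of the intestinal groups, 22.8% lower than in MHCIIhi and 27.8% lower than in MHCIIlo; with higher calls added, the shares were 52.2%, 48.4% and 57.6%. Pax4, Isl1, Neurod1, Insm1, Nkx2-2 and Rfx6 were above background on 0 of 3 kidney arrays. Against the detection limit in kidney, the level in MHCIIhi was at least 6.04-fold higher for Pax4 and at least 4.61-fold for Isl1. The MHCIIhi mean lay 3.02-fold above that limit for Neurod1, 2.83-fold for Rfx6, 2.81-fold for Nkx2-2 and 2.41-fold for Insm1. Each of these was measured above background on 2 of 3 MHCIIhi arrays. Their means include the MHCIIhi 3 value, which was not above background, so these folds are no lower bounds. All folds given here against kidney are on scaled levels, and the part of the scale in them was not tested. Between kidney and MHCIIlo, Pax4 was below background on both sides, and no fold is given.

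Neurog3, Fev and Pax6 were above background on 3 of 3 kidney arrays. Kidney was lower than MHCIIhi by -1.66 ± 0.21 (SE; limma adjusted p = 0.000138) for Neurog3 and by -1.41 ± 0.26 (adjusted p = 0.00140) for Fev. For Pax6 the difference was -1.37 ± 0.50 (adjusted p = 0.0391), a call that was lost without MHCIIhi 3 (-0.74, adjusted p = 0.0720), without MHCIIhi 3 and MHCIIlo 1 (-0.74), without MHCIIlo 3 or any one kidney array, with slide as a random block (adjusted p = 0.0607), with arrays scaled to the median of probes above background (-1.17, adjusted p = 0.0693) and with the compared arrays fitted alone (adjusted p = 0.0514). Against MHCIIlo the differences were -1.54 for Neurog3, -2.06 for Fev and -3.51 for Pax6. Before scaling, the kidney signals of Neurog3 were 28.5, 31.4 and 29.8, above all MHCIIlo arrays and below all MHCIIhi arrays. The unscaled kidney signals of Fev, 23.4, 38.6 and 41.8, overlapped both intestinal groups. Those of Pax6, 44.9, 45.7 and 56.8, overlapped MHCIIhi and lay below MHCIIlo. The lower scaled levels thus moved with the higher 75th percentile of the kidney arrays, and its part in them was not tested.

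Regulators that act before or beside Neurog3 were counted as a list of 18 genes, 17 of which entered the test. Of these, 7 were higher in MHCIIhi than in MHCIIlo and 0 were lower, where 14.9% of all genes were called higher and 16.1% lower. The median difference was 0.74 against -0.24 for all genes. They included Atoh1, which commits progenitors to the secretory lineages (2.09), Gfi1, which acts after Atoh1 in goblet and Paneth cells (1.91), and Hes1, the Notch effector that restrains Neurog3 (1.56). The forkhead factors Foxa1 (1.21) and Foxa2 (3.00) and the progenitor factors Sox4 (3.13) and Sox9 (2.02) were the other genes called higher. Atoh1 was above background on 1 of 3 MHCIIlo arrays and Foxa2 on 2. Both passed the filter through MHCIIhi alone, so the filter itself favoured higher values for them. The count was 7 without MHCIIhi 3 and without MHCIIlo 1, 5 with slide as a term, where 8.42% of all genes were called, and 4 under normexp correction, where 14.8% of all genes were called and the list's median was -0.06. Myt1 and St18, zinc-finger factors of endocrine precursors, differed by 0.74 and 1.18 and did not pass (limma adjusted p = 0.0875 and 0.0799), with 0 and 1 of 3 MHCIIlo arrays above background. They too entered the test through MHCIIhi alone.

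Regulators of subtype and maturation numbered 16, and 13 were tested. Mnx1, a homeodomain factor of pancreatic beta cells and motor neurons, was higher in MHCIIhi by 3.12 ± 0.36 (SE; limma adjusted p = 0.000509) and was above background on 3 MHCIIhi arrays and 0 MHCIIlo arrays, so that it was at least 3.00-fold higher. Egr4 was higher by 3.79 ± 0.80 (adjusted p = 0.00632), but was above background on only 1 of 3 MHCIIlo arrays, so the size rests partly on values not above background. Mnx1 and Egr4 passed the filter through MHCIIhi alone, so the filter itself favoured higher values for them. With 2 of 13 higher and 2 lower, the median was -0.013. With slide as a term 1 was higher and 0 were lower, and under normexp 0 were higher and 1 was lower. Without MHCIIhi 3, 2 were higher and 3 lower, with a median of 0.34.

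The products of endocrine cells were also measured. Of 20 hormone, granin and amine-synthesis genes 18 were tested, with 2 higher in MHCIIhi, 1 lower and a median of 0.05. The neuropeptide genes Nts and Tac1 were higher by 1.24 and 1.55 (limma adjusted p = 0.0214 and 0.0249). Gast, which encodes gastrin, was lower by -1.31 (adjusted p = 0.0277), and Chga, the granin used to mark endocrine cells, differed by -0.89 (adjusted p = 0.00861), under the size required. The secretin gene Sct differed by 0.07 (adjusted p = 0.859) and Cck by 0.02 (adjusted p = 0.968). Of 17 genes of prohormone processing and secretion 13 were tested, 0 higher and 1 lower, Pam (-1.24, adjusted p = 0.0418), with a median of -0.37. Without MHCIIhi 3, 2 genes of the processing list were lower. With slide as a term, limma called 0 genes of either list, while 4 hormone and granin genes and 2 processing genes had an unadjusted p below 0.05. In kidney, 16 of the 18 hormone and granin genes tested were lower than in the mean of the intestinal groups and 1 was higher, Scg5 (5.49).

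**Figure D5:**
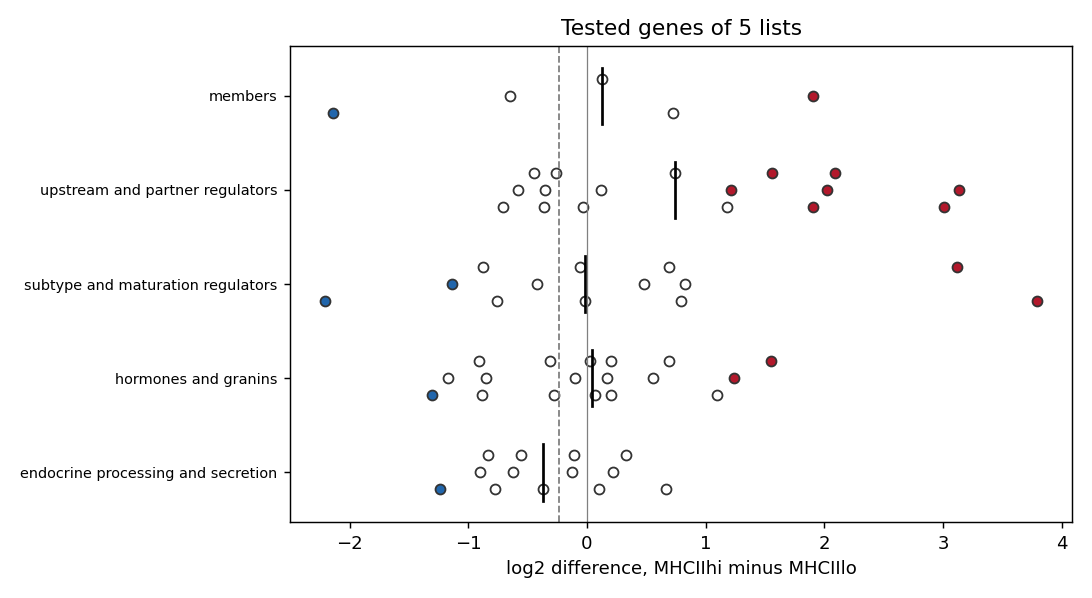
Log2 difference of MHCIIhi minus MHCIIlo for each tested gene of 5 lists, with filled points for called genes, the list's median as a black bar and the median of all genes as a dashed line at -0.24. Of 17 upstream and partner regulators 7 are called higher and 0 lower, and the medians of the hormone and the processing lists are 0.05 and -0.37.

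Markers of other cell types moved between the intestinal groups beside the factors, and their part in the differences was not tested. Of the goblet and Paneth markers tested, 8 of 11 were higher in MHCIIhi, as were 5 of 8 crypt stem cell markers, and 9 of 10 enterocyte markers were lower. In the same order, the median differences of these lists were 1.62, 3.54 and -1.92. With slide as a term, a contrast with 1 MHCIIhi array, they were 1.89, 3.01 and -0.94. The summed linear level of the goblet and Paneth list, in units of the array's 75th percentile, was 1213 to 2160 in MHCIIhi and 464 to 983 in MHCIIlo, and that of the stem cell list was 21.3 to 40.5 and 5.54 to 6.43. Leukocyte markers were higher for 1 and lower for 6 of 10 tested. The higher one was Lyz2 (2.37), while Lyz1 of the goblet and Paneth list differed by 2.40. Jchain (-4.98) and Mzb1 (-4.34) had the largest differences among the 6 lower ones. Fibroblast and smooth muscle markers were lower for 3 of 6 tested, and for 5 of 6 without MHCIIhi 3. Since several members act in neurons and in pancreas, markers of both were read. Of 12 enteric neuron and glia markers 5 were tested and 1 was lower in MHCIIhi (Tubb3, -1.86), while Ret and Gfap were above background on 0 of 9 arrays. S100b and Tubb3 were above background on 9 of 9 arrays, and Sox10 and Uchl1 on 8. The summed level of the neuron and glia list was 0.84 to 1.85 in MHCIIhi and 2.29 to 4.68 in MHCIIlo. In MHCIIlo that sum rested mostly on Tubb3, at log2 levels of 0.87, 1.39 and 2.03, so it does not describe the list as a set. Without MHCIIhi 3 or without MHCIIlo 1 the number of neuron and glia markers called lower was 2. Of 8 pancreas markers 4 were tested and 1 was lower (Ctrb1, -1.42), or 2 without MHCIIhi 3, while Cpa1, Ptf1a and Ins1 were above background on 0 of 9 arrays, Cela1, Ctrb1 and Cel on 9 and Ins2 on 8. The summed level of the pancreas list was 1.41 to 2.73 in MHCIIhi and 3.02 to 4.98 in MHCIIlo, where it likewise rested mostly on Ctrb1 (log2 levels 1.37, 2.14 and 2.06).

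The genes most like each tested factor were taken by Pearson correlation over the 9 arrays among 13644 other named genes, as a description. The arrays form 3 groups that share tissue, slide and scale, so high values are common. Neurog3 was most like Lrmp (0.988), Ccnk and Pnliprp2, and Pax4 was most like Myb (0.996), Capn8 and Rps20. Pax6, on its brightest probe, was most like Nipal3 (0.997), Zup1 and Srrm4. Isl1 was most like Lrrc26 (0.991), Pqlc3 and Galnt7, and Fev was most like H1f8 (0.995), Bmp2 and Helz2.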

How the data were processed

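Sorted epithelial cells gave 9 RNA samples, each pooled from several mice, labelled with Cy3 and put on single-colour Agilent arrays, 3 per group, with groups taken from the sample titles. Spots were quantified in Agilent Feature Extraction (per the file headers, version 10.5.1.1). Deposited processed signals are linear intensities from which that software had subtracted background, with a surrogate where not significant, and they were not normalized between arrays. The authors' deposited value table also holds intensity on a linear scale: a column is the array's processed signal over its median (largest relative deviation 2.37e-05), with a column median of 1 and no centring of genes.

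Control and flagged spots were left out, spots of a probe were averaged, and log2 signals were centred on each array's 75th percentile. Of several probes of a gene, the one brightest on average over all 9 arrays was read. Genes measured above background on each array of some group (19993) were fitted with limma 3.58.1 (lmFit, eBayes) in R 4.3.3 with group as factor. A call needed an adjusted p (Benjamini-Hochberg) below 0.05 with a log2 difference of 1 or more in size. Probe names were updated by accession through RefSeq's GRCm38.p6 table (24375 probes; 16799 kept the name in the file). The scripts of the fit were tested on simulated data. The number of arrays limits the precision. Replicates were independent per the labels. Their numbers are not stated to pair samples, and the main fit did not pair them. The correlations of deviations between MHCIIhi and MHCIIlo samples of the same number were 0.19, -0.35 and 0.28, and cannot settle whether they were paired.

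The 9 members, the gene lists and the tests were chosen with earlier results of these data known. Named were all members with every probe, genes of the lists and, per tested member, the 3 genes most like it. Alternatives covered normalization, background correction, filters, probe summaries, slide and replicate blocks, call rules and leaving out arrays. The alternative without MHCIIhi 3 and MHCIIlo 1 and that with every probe and no filter, and the settings tried on the gene lists, were chosen after seeing the data. Some genes of the lists are counted but not reported here by name.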

Additional observations from a re-analysis of the deposited data

How the results depend on the processing

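Called members between MHCIIhi and MHCIIlo, 2 in the fit described, numbered 4 with no filter on dim probes and 4 with every probe and no filter (where all 9 were tested), 1 with normexp correction (Pax6 alone), 1 with probes above background on all arrays (3 tested), 1 with the mean of a gene's probes, 1 with slide as a fixed term, and 7 without MHCIIhi 3 and MHCIIlo 1; they ranged from 2 to 6 when 1 array was left out. The shares of all genes called there were 31% in the fit described, 30% with no filter, 14.8% with normexp and 29.8% with probes above background on all arrays. They were 28.6% with the mean of a gene's probes, 8.42% with slide as a fixed term, 41.5% without MHCIIhi 3 and 46.5% without MHCIIhi 3 and MHCIIlo 1. With every probe and no filter, 29.5% of all probes were called. For kidney against the mean of the intestinal groups (5), the counts were 9 with no filter, 9 with every probe and no filter, 3 with probes above background on all arrays, 9 without both arrays, and 5 to 9 without 1 array. Against MHCIIhi (5) they were 9, 9, 3, 8 and 4 to 8. Against MHCIIlo (5) they were 9, 9, 3, 9 and 5 to 9, and 3 with the filter on, or the fit of, the compared groups alone. These filters change which members are tested. Shares of all features called in the kidney comparisons follow for no filter, every probe and no filter, and probes above background on all arrays. They were 57.2%, 56.3% and 44.2% against the mean, 48.2%, 47.3% and 40.3% against MHCIIhi, and 62.3%, 61.5% and 52% against MHCIIlo. With the filter on the compared groups alone, the share against MHCIIlo was 57.4%. Shares for the other settings of this paragraph are not given here, so their counts are not read as results about the members. Signs between MHCIIhi and MHCIIlo turned for Pax4 (-0.39), Isl1 (-0.62) and Neurog3 (-0.46) under normexp, where the median of all genes was -0.50 and relative to it they lay at 0.10, -0.12 and 0.04, and for Neurog3 without both arrays (-0.15) and in the range of -0.013 to 0.29 without 1 array; the cause was not tested. Isl1 passed the threshold without both arrays (1.31, limma adjusted p = 0.0167), where neither remaining MHCIIlo array measured it above background. Every member called in a kidney comparison was lower in kidney in all alternatives run. For Pax4 and Isl1, which passed the filter through MHCIIhi alone, the filter itself favoured that direction. With the replicate number as a block the counts were 2, 5, 5 and 5, and no call changed. Slide as a fixed term gives no kidney comparison, since kidney had a slide of its own, and the fit on the compared arrays equals the full fit for the mean of both intestinal groups. Signals near background limit these results: 4 of 9 members could not be tested.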

Other observations

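Tuft cells, a chemosensory cell type that is rare like the endocrine cells, gave a different picture across replicates. Of 10 tuft markers 9 were tested between MHCIIhi and MHCIIlo, with a median difference of 0.09 and limma adjusted p from 0.138 to 0.992. The taste channel gene Trpm5 had levels of 0.40, -1.78 and -1.03 in MHCIIhi and -1.64, -0.73 and -0.31 in MHCIIlo. In these scaled levels Trpm5 was highest on MHCIIhi 1 within its group, like 6 of the 9 endocrine factors. It was lowest on MHCIIlo 1, where 14 of the 19 hormone and granin genes were highest.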
